A study of Mus musculus with 2 samples.

Results

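Intronic contigs are stretches of continuous RNA-seq coverage that lie wholly inside a gene, on the gene's own strand, and touch none of the exons annotated on that strand. They were chosen by position and by a deposited reproducibility value of 0.1 or less (low values mark contigs that both libraries support), on mm9 coordinates with Ensembl 65 genes and exons. Of 830022 contigs, 424626 met the reproducibility limit, and 213937 of these were intronic, which is 50.4% of the reproducible contigs. A further 100294 reproducible contigs overlapped a same-strand exon, 26915 lay opposite to a gene of the other strand only, and 83480 lay outside the genes of both strands.

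Whole brain was taken on embryonic day 14.5 from C57BL/6J littermates, males and females together. The 2 libraries, biological replicates 1 and 2, form 1 untreated group, and both hold polyadenylated RNA longer than 200 nt, depleted of rRNA and sequenced as stranded read pairs. Expected counts on annotated genes summed to 103493289 in replicate 1 and 97539730 in replicate 2. The contig table is one list over both libraries, so a contig has no value per library and no error between libraries, and nothing in the study contrasts conditions. Whole brain holds many cell types, and fewer cells of a type and less RNA per cell cannot be told apart in these values.

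Introns are transcribed with the exons of a gene and removed by the spliceosome, largely while RNA polymerase is still moving along the gene. RNA that has not yet been spliced, released introns and unannotated exons all give reads inside introns. Many genes of neuronal adhesion, synapses and ion channels are among the longest in the mammalian genome, and nearly all of that length is intron.

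Most intronic contigs were faint. Their median level was 0.083, with the 5th percentile at 0.043 and the 95th at 0.255. Level here is the deposited signal, which behaves as coverage per base scaled by one constant for the file, and the files name no scale for it. Exon-overlapping contigs had a median level of 0.565, contigs opposite to genes 0.095 and contigs outside genes 0.082. The median intronic contig was 803 nt long, against 1179 nt for exon-overlapping contigs, 497 nt for those opposite to genes and 608 nt for those outside genes. Summed coverage of the median intronic contig equalled 35.8 read lengths, and the lowest member had 11.4. Intronic contigs were thus 50.4% of the reproducible contigs and held 6.29% of their summed coverage, while exon-overlapping contigs held 87.7%.

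**Figure D1:**
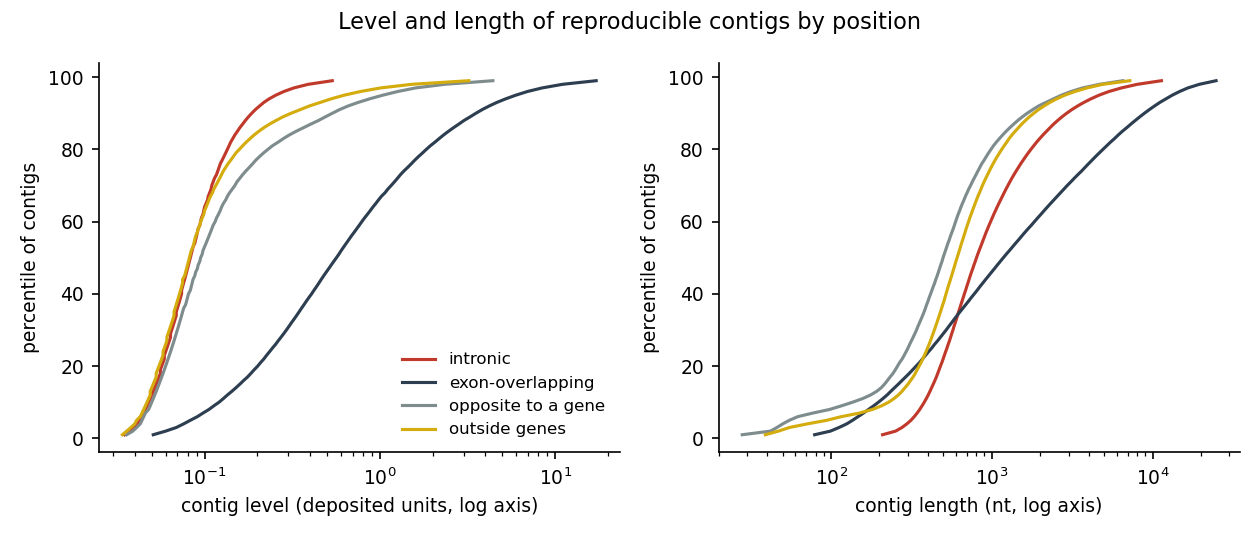
Percentile curves of contig level (left, deposited units, log axis) and contig length (right, nt, log axis) for the 4 positional sets of reproducible contigs, drawn from percentile 1 to 99. The intronic curve runs with the curves outside genes around its median of 0.083 and far left of the exon-overlapping curve, whose median is 0.565, while intronic contigs are longer than those outside genes.

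The reproducibility value that chose the members moves with depth. Members at 0.09, just inside the limit, numbered 11637 with a median level of 0.055 and a median of 13.6 read lengths of coverage. The 10163 intronic contigs at the next deposited value, 0.13, were left out and had a median level of 0.051 and 11 read lengths. At the value 0 stood 111297 members, with a median level of 0.112 and a median length of 1415 nt.

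Introns of expressed genes were covered broadly. The members lay in 10528 host genes, of which 9308 are protein coding in GENCODE vM21. Together they covered 315 Mb, or 38.3% of the 823 Mb of intron in their host genes. Exon-overlapping contigs that ran on into introns covered a further 23.7% of the same length, and these are not members. Among genes with an intron that end before the last contig of their chromosome, 10526 of 24325 (43.3%) were hosts.

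The other strand of the same introns served as the background. Over the 786 Mb of host intron with no gene on the opposite strand, members covered 39.1% of the sense strand. Reproducible contigs of every kind covered 1.94% of the antisense strand. Hosts hold a member on the sense strand by definition, and the antisense strand was not chosen in this way. Over the 971 Mb of intron in genes that end before the last contig, hosts or not, members covered 32.5%. Between genes, contigs covered 3.6% of each strand. In genes with a mean RPKM (the authors' gene-level read density, scaled by length and library size) below 0.01, members covered 1.24% of sense intron. With exon-overlapping contigs added the sense share was 1.89%, and contigs of every kind covered 1.90% of the antisense strand. Sense coverage by intronic contigs was 6.43% in genes from 0.01 to 0.1 RPKM, 35.4% from 0.1 to 1 and 47.3% from 1 to 5. It was 35.8% from 5 to 20 RPKM and 21.2% at 20 or more. Coverage by members thus had its maximum in genes of middle expression. When exon-overlapping contigs were added, the covered share went up from 1.89% in the lowest class through 47.7% and 82.0% to 88.4% and 89.3% in the classes from 5 to 20 and at 20 or more. In highly expressed genes most of the covered intron was joined to exons and so lay outside the set by its rule.

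The share of intron that belonged to intronic contigs went up with gene length. Genes of 100 kb or more made up 10.2% of genes with an intron and 60.5% of intron length, and they held 159049 members, 74.3% of the total. Among genes with both RPKM values at 1 or more, intronic contigs covered 1.15% of the summed intron length of genes under 5 kb. The share was 10.9% at 10 to 25 kb, 32.9% at 50 to 100 kb, 43.3% at 100 to 200 kb, 57.7% at 200 to 500 kb and 62.1% at 500 kb or more. Exon-overlapping contigs moved the other way, from 94.2% of intron length in genes under 5 kb to 12.9% at 500 kb or more. The sum of both ran from 95.4% in the shortest class to 75% in the longest. In genes with both RPKM values below 1, intronic contigs covered 1.82% in the shortest class and 38.2% in the longest. The median RPKM of these 2 classes was 0 and 0.377, so length and expression moved together in this group.

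**Figure D2:**
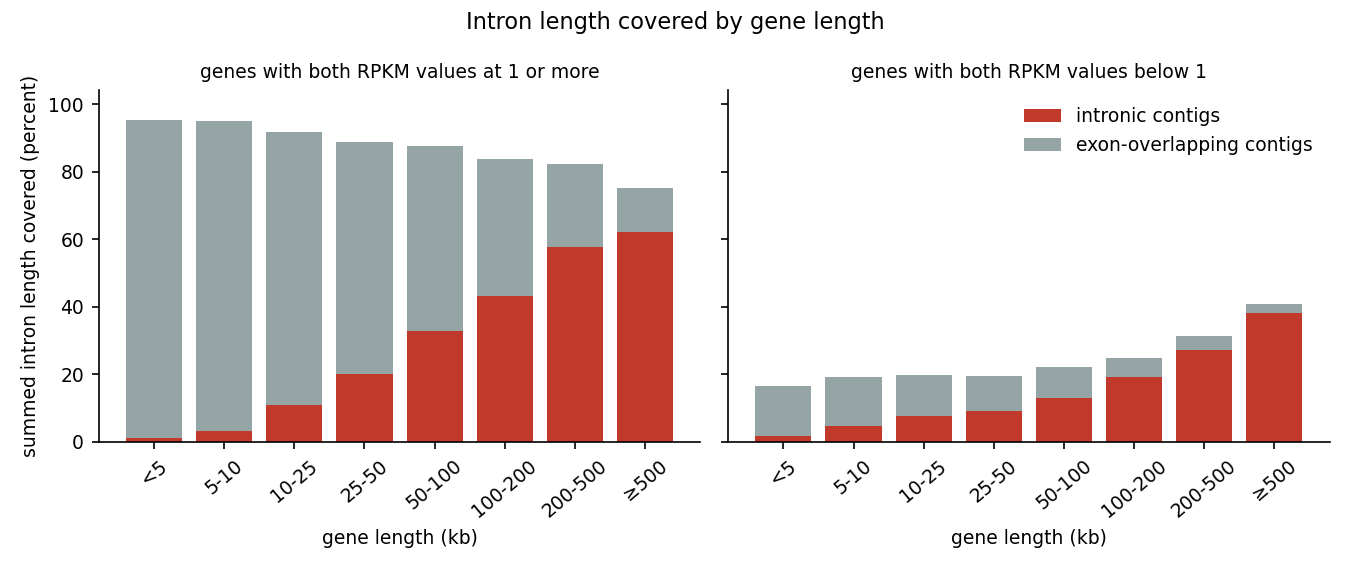
Percent of the summed intron length of each gene length class (kb) covered by intronic contigs (red) and, stacked on top, by exon-overlapping contigs (grey), for genes with both RPKM values at 1 or more (left) and below 1 (right). In the left panel the red share runs from 1.15% to 62.1% with gene length while the grey share shrinks from 94.2% to 12.9%.

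Across the 10528 host genes the percent of intron covered by members had a Spearman correlation of 0.24 with gene length and 0.32 with mean RPKM, given as descriptions, since the genes share 2 libraries and 1 contig table. Within the 5148 hosts with both RPKM values at 1 or more these were 0.45 and -0.13. The percent covered by intronic and exon-overlapping contigs together had a correlation of 0.76 with RPKM and 0.01 with length over all hosts. The number of contigs followed length more closely, at 0.72. The median host had 5 members and 22.1% of its intron covered. Single-contig hosts numbered 2125, and 477 genes with 100 contigs or more held 43.8% of the members. At 50% coverage or more stood 1760 hosts.

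**Figure D3:**
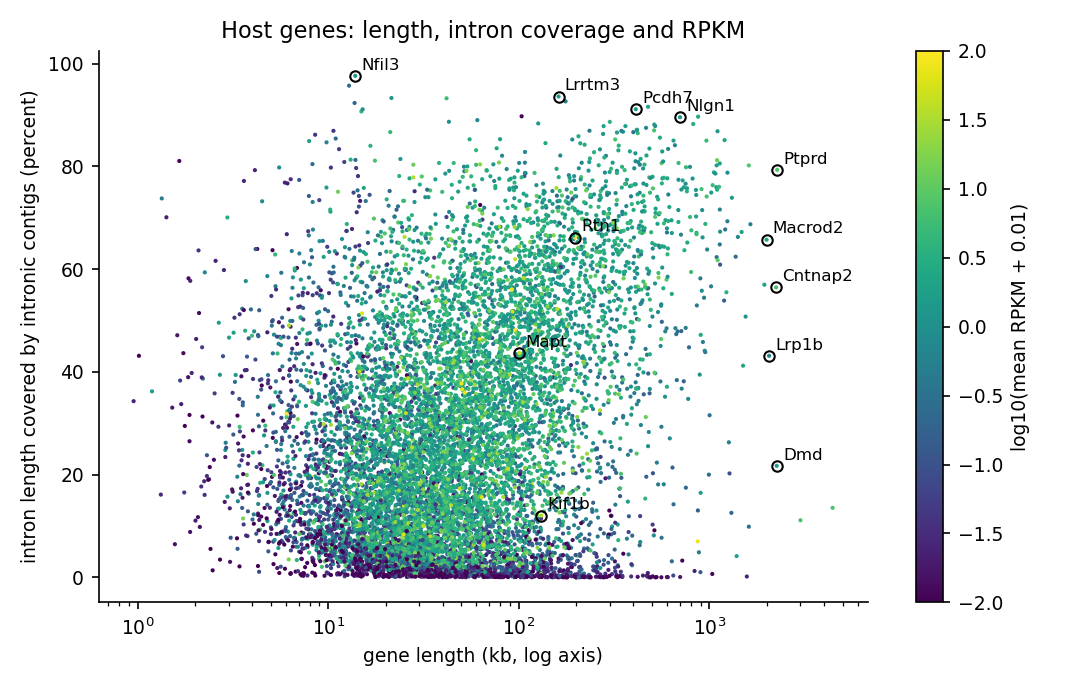
Each point is 1 of the 10528 host genes, with gene length (kb, log axis) against the percent of its intron length covered by intronic contigs, coloured by log10 of the mean RPKM plus 0.01. High coverage becomes common above 100 kb, and genes of similar length differ widely, as Ptprd at 79.3% and Dmd at 21.7% show.

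The genes with most members were very long. Cntnap2, a neurexin-family adhesion protein (chromosome 6, 45010060 to 47251368 in mm9), held 850 contigs that covered 1261 kb, 56.4% of its intron, and its TPM (transcript abundance scaled to a fixed total per library) was 67.8 in replicate 1 and 66.2 in replicate 2. Ptprd, a receptor phosphatase that organises synapses (chromosome 4, 75587142 to 77857865), held 768 contigs over 1783 kb, the most covered bases of any host, at TPM 70.8 and 80.3. Macrod2, which encodes an ADP-ribose hydrolase, followed with 756 contigs and 65.7% of intron covered. Lrp1b, a receptor of the LDL receptor family, had 730 contigs and 43.1% covered. Dlg2, a postsynaptic scaffold, had 651 contigs and 57.0% covered.

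Several hosts of many contigs had low RPKM or TPM. The file's 2 RPKM values of a gene are not tied to a replicate number, so their order need not match that of the TPM of replicates 1 and 2. Il1rapl1, a synaptic adhesion protein on the X chromosome, held 617 contigs over 62.4% of its intron with RPKM values of 0.171 and 0.274 and TPM of 0.58 and 1.08. Csmd3 held 582 contigs over 67.7% of its intron at TPM 2.85 and 5.47. Kcnip4, a modulator of A-type potassium channels, had 580 contigs covering 71.6%, and 96.0% of the summed coverage of contigs inside this gene was in intronic ones. In Lingo2 that share was 96.3% and in Lrrc4c, the netrin-G ligand, 95.1%. Contigs that run past a gene end are left out of this share, so it is not a share of all the gene's signal. It came to 100% in Srsf4, where exon-overlapping contigs covered 85.4% of the intron. Hosts with both RPKM values below 1 numbered 4812, which is 45.7% of hosts, and held 41.2% of the members. Both values were at 1 or more in 5148 of the 10528 hosts. Among all 24325 genes with an intron that was so in 9057, a smaller share.

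A high number of contigs did not mean that most of the intron was covered. Dmd, the dystrophin gene, is as long as Cntnap2 at 2257 kb, and its 580 contigs covered 21.7% of the intron. Ctnna3, an alpha-catenin gene of 1574 kb, had 12 contigs that covered 0.17%. Nrxn3, a presynaptic neurexin of 1612 kb, had 245 contigs, which covered 80.2%, and its longest contig measured 41989 nt.

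Among hosts with 10 kb or more of intron and both RPKM values at 1 or more, the highest covered shares were 97.6% in Nfil3, a bZIP transcription factor gene of 13.9 kb, and 93.6% in Lrrtm3, a postsynaptic adhesion protein. Pcdh7, a protocadherin, had 91.1% covered by 89 contigs, Pcdh9 89.7% by 181 and Nlgn1, a postsynaptic neuroligin, 89.6% by 138. In Nlgn1 the intron averaged a level of 0.443 with uncovered bases at 0, against 0.112 in Cntnap2.

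The highly expressed long genes were split between both kinds of contig. Rtn1, a reticulon of the endoplasmic reticulum, at RPKM 157 and 170, kept 66.2% of its intron in intronic contigs and 18.9% in exon-overlapping ones. In Kif1b, a kinesin of axonal transport, intronic contigs covered 12% and exon-overlapping ones 87.1%. Map2 stood at 32.5% and 64.6%, and Mapt, the tau gene, at 43.7% and 52.6%. Of 263 genes of 100 kb or more with both RPKM values at 5 or more, 5 held no member. In Atxn2, Kansl1, Zfp532 and Ppp6r3 exon-overlapping contigs covered 99.6% to 99.9% of the intron, and in Usp7 they covered 44.2%. For Gm15710 and Rpl13-ps6 the RPKM values of 45.3 to 90.8 stood against TPM of 1.5 or less, so their place among the highest long genes rests on the mm9 values.

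The lists of neuronal surface genes had high covered shares, and their genes are long. The lists were chosen with results of these data known, so they describe and do not test. Members lay in 28 of 30 measured synaptic and neuronal adhesion genes, with a median of 67.6% of intron covered, in 24 of 24 axon guidance genes at 67.7%, in 22 of 22 transmitter receptor genes at 66.2% and in 20 of 20 voltage-gated channel genes at 60.7%. Among all 1186 genes of 100 kb or more with both RPKM values at 1 or more the median was 51.1%, and among all 9057 genes with an intron at that RPKM it was 6.63%. Median gene lengths were 780, 341, 395 and 446 kb in the 4 lists, against 163 kb in those 1186 genes. At that RPKM the median was 59.5% for genes of 200 to 500 kb and 70.2% at 500 kb or more, and without an RPKM limit 48.0% and 63.7%. Beside the classes at RPKM 1 or more, the adhesion list lay below the longest class and the channel list near that of 200 to 500 kb. The axon guidance and transmitter receptor lists, at 67.7% and 66.2%, lay above the 59.5% of the class of 200 to 500 kb. The lists themselves carry no RPKM limit. Beside the classes without one, the adhesion list lay above the 63.7% of the longest class. The channel, axon guidance and transmitter receptor lists lay above the 48.0% of the class of 200 to 500 kb.

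Examples in those lists reached 80.2% in Dcc, the netrin receptor, 81.0% in Unc5d, another netrin receptor, 80.7% in Grik2, a kainate receptor subunit, and 88.1% in Kcnd2, an A-type potassium channel subunit. Neuronal transcription factors had a median of 43.1%, led by Zfpm2 at 79.6% and Sox6 at 77.7%. Neuronal RNA-binding and splicing regulators had 40.2%, with Khdrbs2 at 83.5% and Nova1 at 74.3%. Cytoskeleton and growth cone genes had 33.5%, with Map1b at 68.2%, and chromatin regulators 8.69%, with Dnmt3a, a DNA methyltransferase, at 57.9%.

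Short and highly expressed gene classes had few members. None of 18 ribosomal protein genes and 1 of 25 SR protein, hnRNP and Clk kinase genes held one; the exception was Srsf4, with 12.6% of intron covered. In both lists the median intron was covered to 100% once exon-overlapping contigs were added. Cell cycle genes held members in 9 of 19, with Cdk6, a G1 kinase gene of 179 kb, at 59.6%. Radial glia genes held them in 7 of 13, with Notch2 at 56.0% and the glutamate transporter Slc1a3 at 46.0%. Of the noncoding list only 9 of 20 names matched the gene table, and 3 were hosts, led by Airn at 50%.

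Lists of other tissues and of nonneuronal cell types had lower covered shares than the lists of neuronal surface genes, and their genes were shorter. Median lengths were 88.3 kb (muscle and liver), 44.3 kb (microglia, endothelial and erythroid) and 37.8 kb (meningeal, pericyte and bone matrix), against 341 to 780 kb. Median RPKM in that order was 0.0551, 1.32 and 2.84, against 1.45 in the channel list and 3.57 in the axon guidance list. Whether the lower shares go beyond gene length and RPKM was not tested. In the list of long muscle and liver genes 7 of 14 were hosts, with a median of 0.0074% covered. Ttn, the giant muscle protein titin, had 1 contig of 24 nt, Neb had 5.60 kb covered and Alb, Cps1 and F5 had none. The exceptions in that list were Nebl at 56.4%, Ryr3 at 35.2% and Dmd at 21.7%, whose RPKM values lay between 0.657 and 1.57. Microglia, endothelial and erythroid genes were hosts in 12 of 18 with a median of 6.00%, among them the endothelial Pecam1 at 20.2% and the microglial Csf1r at 16.5%. Meningeal, pericyte and bone matrix genes were hosts in 12 of 14 with a median of 15.5%. The median was 0% among all genes with an intron, and 6.63% among those with both RPKM values at 1 or more. The last list thus lay above both, and the microglia, endothelial and erythroid list near the second.

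Within long introns the level of the members declined from the 5′ to the 3′ side. Introns of genes with both RPKM values at 1 or more were cut into 10 equal pieces, and the members' level was averaged over each piece with uncovered bases at 0. In 348 introns of 100 kb or more the median level was 0.232 in piece 3, 0.221 in piece 5, 0.163 in piece 7 and 0.103 in piece 9. Exon-overlapping contigs, which are not members, covered 40.2% of piece 1 and 13.6% of piece 10, against 3.73% of piece 3 and 2.82% of piece 9.

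Of the 346 such introns with a member, in 229 genes, 309 (89.3%) had more signal upstream of the midpoint than downstream, with a median log2 ratio of 0.70 after adding 0.01 to both sides. Comparing pieces 2 to 4 with pieces 7 to 9 gave 310 introns (89.6%). The share was 75.4% of 824 introns of 50 to 100 kb and 58.6% of 2512 introns of 20 to 50 kb. In introns of 20 to 50 kb exon-overlapping contigs covered 56.7% of piece 1 and 30.7% of piece 2. They covered 22.0% of piece 9 and 45.1% of piece 10, so the length classes differ in how much the rule leaves out. Introns of a gene share its RNA, so these counts carry no test.

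**Figure D4:**
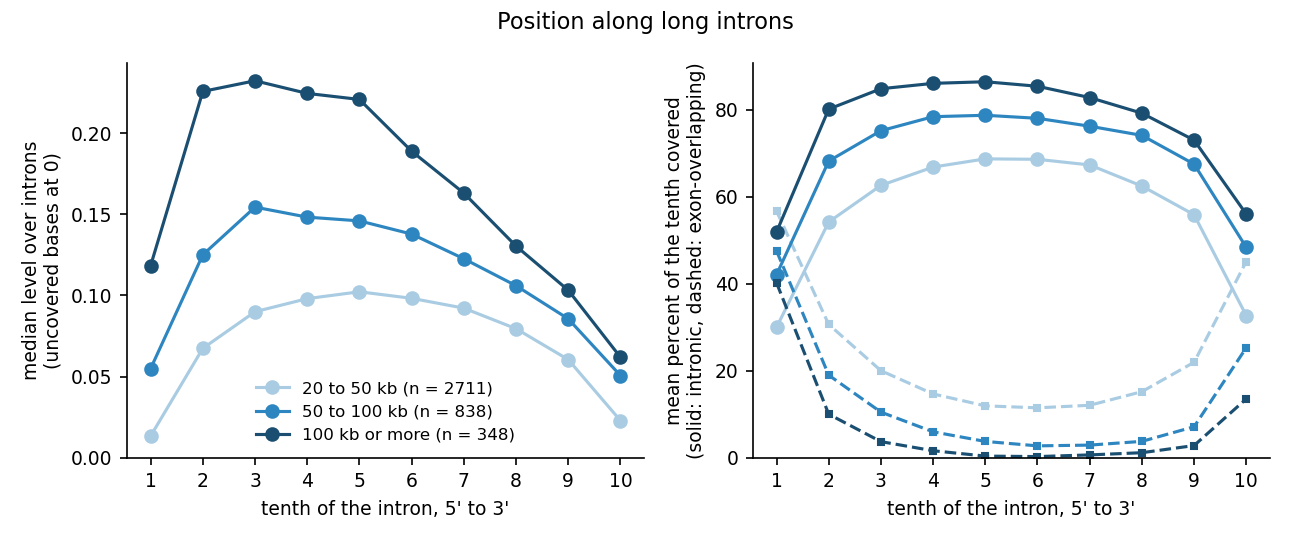
Median level of intronic contigs (left, deposited units, uncovered bases at 0) and mean percent covered (right, solid for intronic and dashed for exon-overlapping contigs) in 10 equal pieces of introns of 3 length classes, 5′ to 3′. In introns of 100 kb or more the median level runs from 0.232 in piece 3 to 0.103 in piece 9, and exon-overlapping contigs take 40.2% of piece 1.

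Single introns of named genes mostly showed this slope. In intron 3 of 5 of Nlgn1 (473 kb, 94.7% covered) the mean level was 0.759 upstream of the midpoint and 0.305 downstream, and piece 2 stood at 1.02 against 0.060 in piece 10. Intron 1 of that gene (213 kb) ended at 0.090 in piece 10, and the level was 0.795 in piece 1 of intron 3. Intron 2 of 17 of Kirrel3, an immunoglobulin-family adhesion protein, ran over 416 kb with 0.728 upstream and 0.321 downstream. In intron 1 of Dcc, at 395 kb, the values were 1.19 and 0.594.

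In Cntnap2, intron 1 (594 kb) averaged 0.304, with 0.425 upstream and 0.183 downstream. Its intron 13 (276 kb) averaged 0.076 and intron 3 (205 kb) 0.072. Auts2, a gene of neuronal development, showed the slope in introns 2 (1.05 upstream, 0.558 downstream) and 3 (0.685 and 0.436). Its intron 12 (0.411 and 0) was 22.5% covered, with no member in pieces 1, 2 and 6 to 10. The opposite of the slope was seen in intron 6 of Auts2 (0.719 and 0.945), where pieces 1, 2 and 10 held no member. Introns 8 (0.438 and 0.535), 9 (0.019 and 0.502) and 10 (0.272 and 0.306) of Auts2 were also higher downstream, and its intron 7 was level at 0.242. Intron 8 held no member in pieces 1, 2 and 10, intron 9 none in pieces 1 to 4 and 10, and intron 10 none in piece 1. Intron 1 of Ncam1 (229 kb) was nearly level at 0.519 and 0.562, with no member in pieces 1 and 10.

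**Figure D5:**
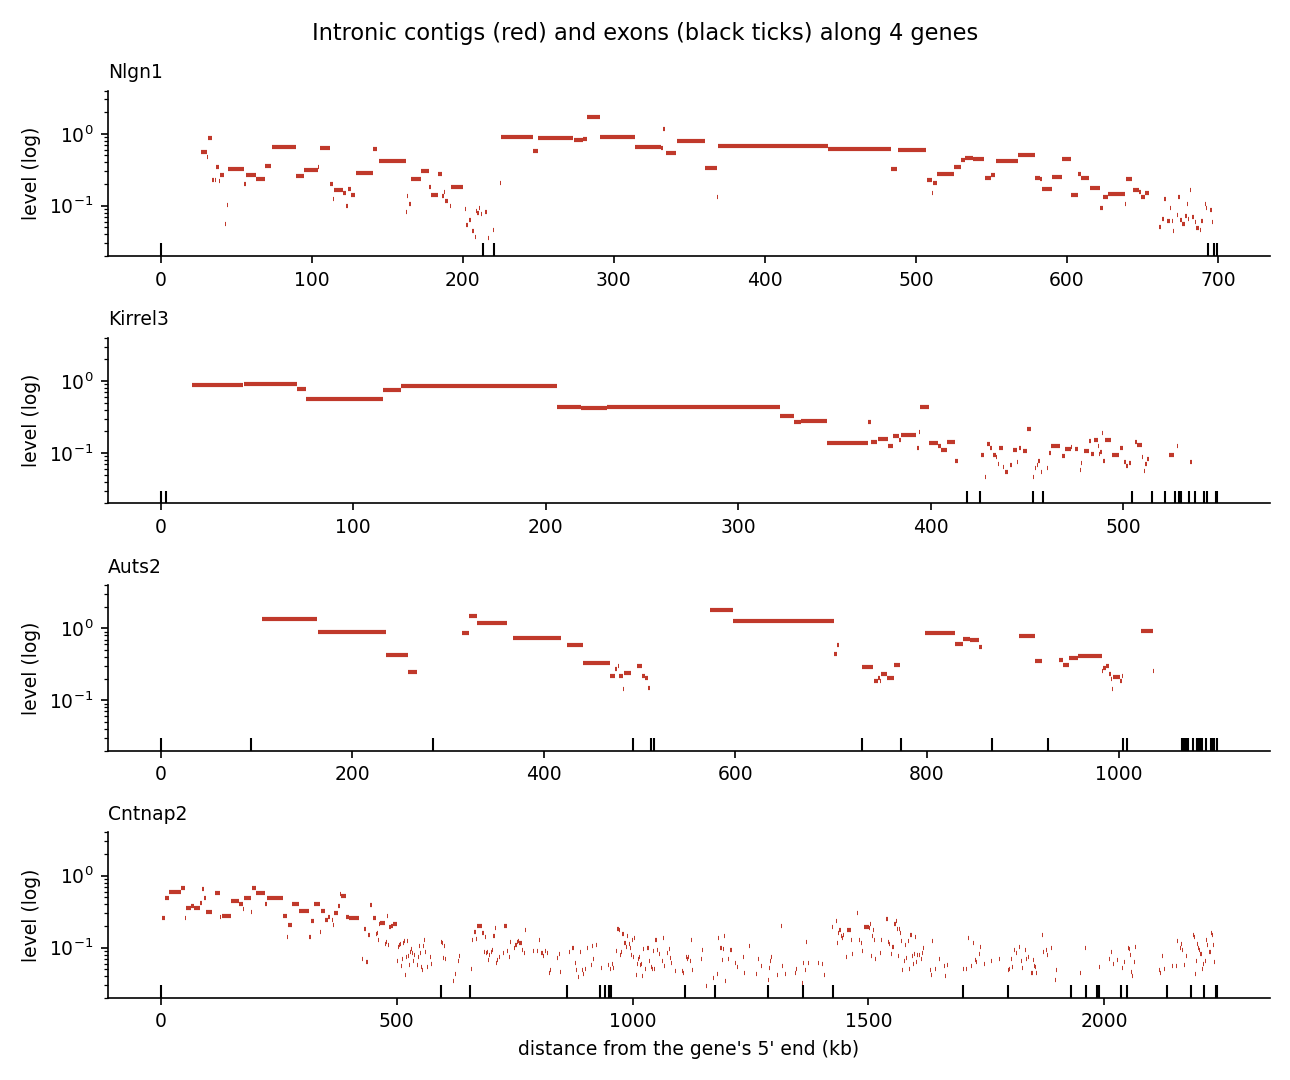
Intronic contigs (red bars, drawn to their length at their level, log axis, deposited units) and exon positions (black ticks) against distance from the 5′ end (kb) in Nlgn1, Kirrel3, Auts2 and Cntnap2. The level falls along intron 3 of Nlgn1 and intron 2 of Kirrel3, whose upstream and downstream means are 0.759 and 0.305 and 0.728 and 0.321, and white stretches next to exons are those held by exon-overlapping contigs or by none.

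Intron length, more than intron rank, went with coverage by members. Exon-overlapping contigs are not counted in this comparison. In genes under 5 kb with both RPKM values at 1 or more they covered 94.2% of intron length. In genes with both RPKM values at 1 or more, 0.54% of introns under 1 kb held a member, 16.5% of those of 1 to 5 kb, 58.4% at 5 to 20 kb and 99.4% at 100 kb or more. Covered shares of introns of 100 kb or more were 81.0% for 89 first introns, 75% for 65 second introns and 77.4% for 193 later ones. Over all members, 21.1% lay in the first intron of their host. The median member was 6426 nt from the nearest same-strand exon, 39.7% were more than 10 kb away, and 3.89% lay within 200 nt.

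The longest members were single unbroken stretches across much of an intron. In Auts2 a contig of 106041 nt in intron 6 of 27 (chromosome 5, 132316037 to 132422077) had a level of 1.26. A pair of contigs in intron 2 of Kirrel3 measured 89569 and 81175 nt at levels of 0.441 and 0.841, and 1 in Nlgn1 measured 72760 nt at 0.684. Others above 60 kb lay in Ncam1, Dcc, Cadm1, Ebf1, Fmnl2, Nfia and Dab1, genes of cell adhesion, axon guidance, actin assembly, migration signalling and transcription. Members of 10 kb or more numbered 2824 in 1003 genes, at levels from 0.107 to 2.62, and held 32.0% of the members' summed coverage. Of these, 271 lay in genes with both RPKM values below 1, such as the 58743 nt contig in Sgcz, a sarcoglycan gene with TPM of 0.57 and 0.97.

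The highest levels were found elsewhere, mostly in shorter members of hosts with low RPKM. A contig of 260 nt on chromosome 17 (71312985 to 71313244) reached a level of 3070 in an intron of a gene with RPKM of 0 in both values and no symbol in GENCODE vM21. One of 845 nt in Cmss1 reached 1200, with host RPKM of 0.504 and 0.297, and one of 222 nt in Il31ra, a cytokine receptor subunit, 671 at host RPKM of 0.012 and 0.019. Next came contigs of 21 nt in Pard3b (192), 2468 nt in Gphn, the gephyrin gene with host RPKM of 2.97 and 3.24 (166), 87 nt in Fmn1 (149) and 464 nt in Cd44 (144). Of 54 members at a level of 10 or more, 39 lay in hosts with both RPKM values below 1 and 26 were shorter than 1 read, and together they held 5.29% of the members' summed coverage. No mm9 genome was used here, so sequences of members are not shown.

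Splicing into the members was rare. A reproducible junction end lay in or within 2 nt of 1769 members (0.827%), on both sides for 612 (0.286%) and on 1 side for 1157. With every deposited junction counted, whatever its reproducibility, the share was 20.7%. Members with junctions on both sides had a median level of 0.247, those with 1 side 0.185 and the rest 0.083. Members without any reproducible junction held 97.6% of the covered bases. De novo exon models, which the authors assembled with Cufflinks per the file itself, overlapped 38604 members (18.0%), whose median level was 0.12 against 0.078 for the others.

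In 302 of the 612, in 278 genes, the strongest junctions on both sides led to annotated exon edges of the host, which outlines an exon missing from Ensembl 65. These outlined exons had a median size of 105 nt and a length divisible by 3 in 128 (42.4%). The weaker of the 2 junctions had a median of 11 reads, and 289 of the 302 had reads in both of the file's 2 counts on both sides. The 2 counts are not tied to a replicate number.

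The strongest outlined exon was one of 91 nt in Tusc3, an oligosaccharyltransferase subunit (chromosome 8, 40242614 to 40242704), with 1253 and 1136 reads into it and 957 and 800 out of it. In Robo2, a Slit receptor of growing axons, an exon of 12 nt (chromosome 16, 74009020 to 74009031) had 155 and 168 reads in and 194 and 211 out, inside a contig of 6418 nt. Rims2, which scaffolds transmitter release sites, had one of 66 nt with 136 and 193 reads in and 142 and 130 out. Nova1, a neuronal splicing regulator, had one of 102 nt with 226 reads in and 233 out, both counts summed. Gabra5, a GABA receptor subunit, had one of 60 nt with 83 and 67 in and 71 and 83 out. Each of these exons had reads in both counts on either side.

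Host genes were compared between the libraries by TPM, since the contigs have no value per library. On log2(TPM + 1), at a mean TPM of 1 or more, 165 of 8305 host genes were 2-fold or more higher in replicate 2, or 1.99%, beside 2.22% of all 14406 genes. Lower by that much were 36 hosts, or 0.433%, beside 0.944% of all genes. On log2(TPM + 0.1) the counts were 306 hosts higher (3.68%, beside 3.88% of all genes) and 68 lower (0.819%, beside 1.41%). One library stands against 1, so no test is possible, and no library carries a treatment.

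Hosts of many contigs leaned to replicate 2. Of 463 hosts with 100 contigs or more, 391 (84.4%) had the higher TPM in replicate 2, and their median log2 difference was 0.38. Among all genes 51.0% were higher in replicate 2, among genes of 100 kb or more 79.6% and among genes with an intron and no member 34.5%, where the median was -0.15. Atp8a2, a phospholipid flippase, stood at TPM 2.47 in replicate 1 and 9.88 in replicate 2, Ksr2 at 1.34 and 4.89, Nav2 at 8.37 and 21.6 and Dcc at 9.03 and 21.4. On log2(TPM + 1), 22 of the 463 hosts (4.75%) were 2-fold or more higher in replicate 2, beside 2.22% of all genes. Lower by that much was 1 host (0.216%), beside 0.944% of all genes. It was Etl4, at 20 and 9.34. Markers of other tissues moved too. All 4 bone and meninges markers were higher in replicate 2, with Col1a1 at TPM 36.55 and 146, Ibsp at 0.17 and 20.3, Runx2 at 0.60 and 2.01 and Dcn at 52.5 and 56.3. Of 5 radial glia markers 3 were lower, such as Vim at 1012 and 789, and of 5 young neuron markers 3 were higher, such as Gap43 at 543 and 859. Their part in the host genes' differences was not tested.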

How the data were processed

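The deposited contigs carry a signal level and a reproducibility fraction, and their summed base counts, whole numbers whose lowest equals the read length, are also deposited; the sources used here name no contig caller or aligner. Deposited junction read counts are the sum of the 2 counts in each junction's name field. Deposited mm9 RPKM values and gene and exon positions follow Ensembl 65, per the submitters' text notes, and each gene's 2 lines were reduced to 1, leaving 37310 genes. Expected counts and TPM per gene on mm10 with GENCODE M4 were deposited by the authors and matched by Ensembl identifier, which failed for 405 host genes.

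Members and lists were chosen with earlier results of these data known. The level of a contig times its length over its summed coverage was nearly constant (0.0172 at the median), so the level was read as scaled coverage per base. A contig was assigned to its shortest containing gene (212101 lay in 1 gene). Intron length was gene length minus every same-strand exon. On 8 chromosomes (13 to 19 and X) the contigs analysed here end 0.865 to 17.8 Mb before the last gene, so 427 of 24752 genes with an intron were left out of denominators. Junctions and contigs counted as reproducible at 0.1 or less. The named genes are the hosts with the most contigs, most covered bases or highest covered share, the highest long genes by RPKM, the highest and longest contigs, and 3 leading members per list; the text names a part. Genes named otherwise (Ctnna3, Ttn, Neb, Alb, Cps1, F5, Pecam1, Csf1r, Sgcz, Fmnl2, Nfia, Dab1, Atxn2, Kansl1, Zfp532, Ppp6r3, Usp7, the outlined exons, Atp8a2, Ksr2, Nav2, Etl4 and the cell type markers) were chosen after their values were seen. Simulated data tested the intronic call, the distance to an exon, the place in the intron, intron length with covered bases, and junction ends. The other steps were not tested in this way. Labels number the libraries as biological replicates; which animals went into each is not given, so the spread between them may be technical. Symbols and biotypes came from GENCODE vM21. Python 3.11.15, numpy 2.4.6, pandas 2.3.3 and scipy 1.17.1 were used. Alternatives covered the reproducibility limit, exons of both strands, contig and gene length, single hosts, expression, junction rules, exon sets, the pseudocount and the low-value filter.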

Additional observations from a re-analysis of the deposited data

How the results depend on the processing

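At a reproducibility value of 0.05 or less the covered share of host intron was 37.3%, the share of contigs in genes of 100 kb or more 74.8% and the share touched by a junction 0.964%; at 0.01 or less there were 132560 contigs and the values were 35.6%, 75.4% and 1.21%. Without contigs that overlap an exon of the other strand the covered share was 37.6%, with contigs of 100 nt or more 38.8%, with contigs inside exactly 1 gene 38.2% (74.7% in long genes) and with only each gene's own exons taken out 38.25%. In hosts with both RPKM values at 1 or more there were 106332 contigs, 46.1% of intron was covered, 72.7% of contigs lay in long genes, 1.05% were touched by a junction, and the correlation of covered share with RPKM turned to -0.13. Every deposited junction gave 20.7% touched, and a limit of 50 kb put 88.2% of contigs in long genes. With a pseudocount of 0.1, 306 hosts were 2-fold higher and 68 lower in replicate 2, beside 3.88% and 1.41% of all genes; the cause was not tested in any of these. With genes past the last contig kept, an addition made after seeing the data, 42.5% of genes were hosts. No paired analysis was possible because both libraries belong to 1 group. Contigs have no value per library, and no member had summed coverage under 11.4 read lengths.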
